A study of Mus musculus with 31 samples.

Results

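Serpins and coagulation factors were followed through the differentiation of mouse embryonic stem (ES) cells into embryoid bodies (EBs), the cell aggregates that ES cells form once they are taken off their substrate and the differentiation-blocking cytokine LIF is withdrawn. The set holds every gene whose symbol starts with Serpin, plus 22 named genes, which belong to clotting, fibrinolysis or anticoagulation except for the fetuin gene Ahsg. A gene entered through a probe set that carried its symbol and no other, and the probe set with the highest mean signal stood for the gene. Of the 22 named genes 20 were found in this way, and together with 23 serpins they made 43 members of the 8251 genes that the arrays measured. F11 and F13a1 had no such probe set and were not analysed here.

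RNA from C57BL/6 (B6) ES cells and EBs had been amplified and hybridised to 31 oligonucleotide arrays of the Affymetrix MgU74Av2 type, 1 sample per array. The B6 ES cells were grown on mouse embryonic fibroblasts (MEFs) with fetal calf serum and LIF. On day 0 there were 2 kinds of ES cells. The first, called sorted ES cells here, were purified by flow cytometry on an Oct4-GFP reporter (6 arrays), and the other, called gelatin ES cells, were depleted of MEFs and passaged once on gelatin (6 arrays). EBs were seeded from gelatin ES cells in nonadherent dishes without LIF and collected on day 4 (7 arrays), day 8 (6 arrays) and day 14 (6 arrays). The days are those of the labels, and the methods, which name other days after day 8, do not list a day 14. Sorted and gelatin ES cells differ both in the sort and in the culture step, which cannot be told apart. An EB is a mixture of cell types, so that fewer cells of a type and less RNA per cell cannot be told apart either.

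Clotting factors are plasma proteins, mostly proteases made by the liver, which activate one another in a chain. The chain starts when tissue factor, the product of F3, meets factor VII, and it ends when thrombin, made from the product of F2, cuts fibrinogen into fibrin. Fibrinogen is put together from the products of Fga, Fgb and Fgg. Plasmin, made from plasminogen, dissolves the clot. Serpins are a family of proteins that trap proteases by a change of their own shape, and many of them restrain clotting or fibrinolysis, while others lost the inhibitor function and act as chaperones or hormone carriers. In the embryo, the visceral endoderm, the outer cell layer that also covers EBs, is known to make many of the plasma proteins that the liver makes later.

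Signals below are in the linear units of the deposited table. They are written as the lowest, the median and the highest array of a group, and changes are differences of log2 signal from a limma fit over all 31 arrays, with adjusted p values by Benjamini-Hochberg over 12422 probe sets. Signals under 59.6, the 5th percentile of the table, were set to that floor before the fit. "Higher" and "lower" are used for changes with an adjusted p under 0.05. Signals of different genes come from different probes and are not set against each other.

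In day 14 EBs, 19 of the 43 members (44.2%) were higher than in sorted ES cells, against 27.0% of all genes, and 7 (16.3%) were lower, against 24.4%. At a change of at least 2-fold, 9 members (20.9%) were higher where 6.10% of all genes were, and 2 members (4.65%) were lower where 2.12% were. Against gelatin ES cells, the cells from which EBs were made, 17 members (39.5%) were higher and 6 (14%) lower, where 22.8% and 24.1% of all genes were. At least 2-fold were 9 higher and 2 lower, against 3.76% and 3.38% of all genes. The median change of the members was 0.07 on the log2 scale against sorted and 0.10 against gelatin ES cells, and that of all genes 0.00 in both, so the large changes belong to a minority of the set. With each array centred on its median, the splits were 17 higher and 10 lower against sorted and 16 higher and 10 lower against gelatin ES cells.

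The changes were spread unevenly over time. Between gelatin ES cells and day 4 EBs, 2 members (4.65%) were higher and 10 (23.3%) lower, against 8.33% and 17.8% of all genes. From day 4 to day 8, 13 (30.2%) were higher and 3 (6.98%) lower, against 13.6% and 13%, and from day 8 to day 14, 16 (37.2%) were higher and 1 (2.33%) lower, against 21.1% and 13%. The 2-fold changes of both later intervals were 7 higher and 0 lower each, against 1.82% and 2.23% of all genes for higher ones. Gelatin ES cells had 9 members (20.9%) higher and 8 (18.6%) lower than sorted ES cells, near the 23.3% and 18.4% of all genes. At least 2-fold were 2 higher and 2 lower between the kinds of ES cells, against 4.39% and 0.994% of all genes, and 0 higher and 2 lower by day 4, against 0.206% and 2.42%. Other scalings changed some of these splits. With each array centred on its median, day 4 gave 5 higher and 8 lower, gelatin against sorted 7 higher and 11 lower, and day 14 against day 8 13 higher and 5 lower, and with quantile normalization the last was 12 higher and 5 lower and day 4 gave 4 higher and 8 lower.

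**Figure D1:**
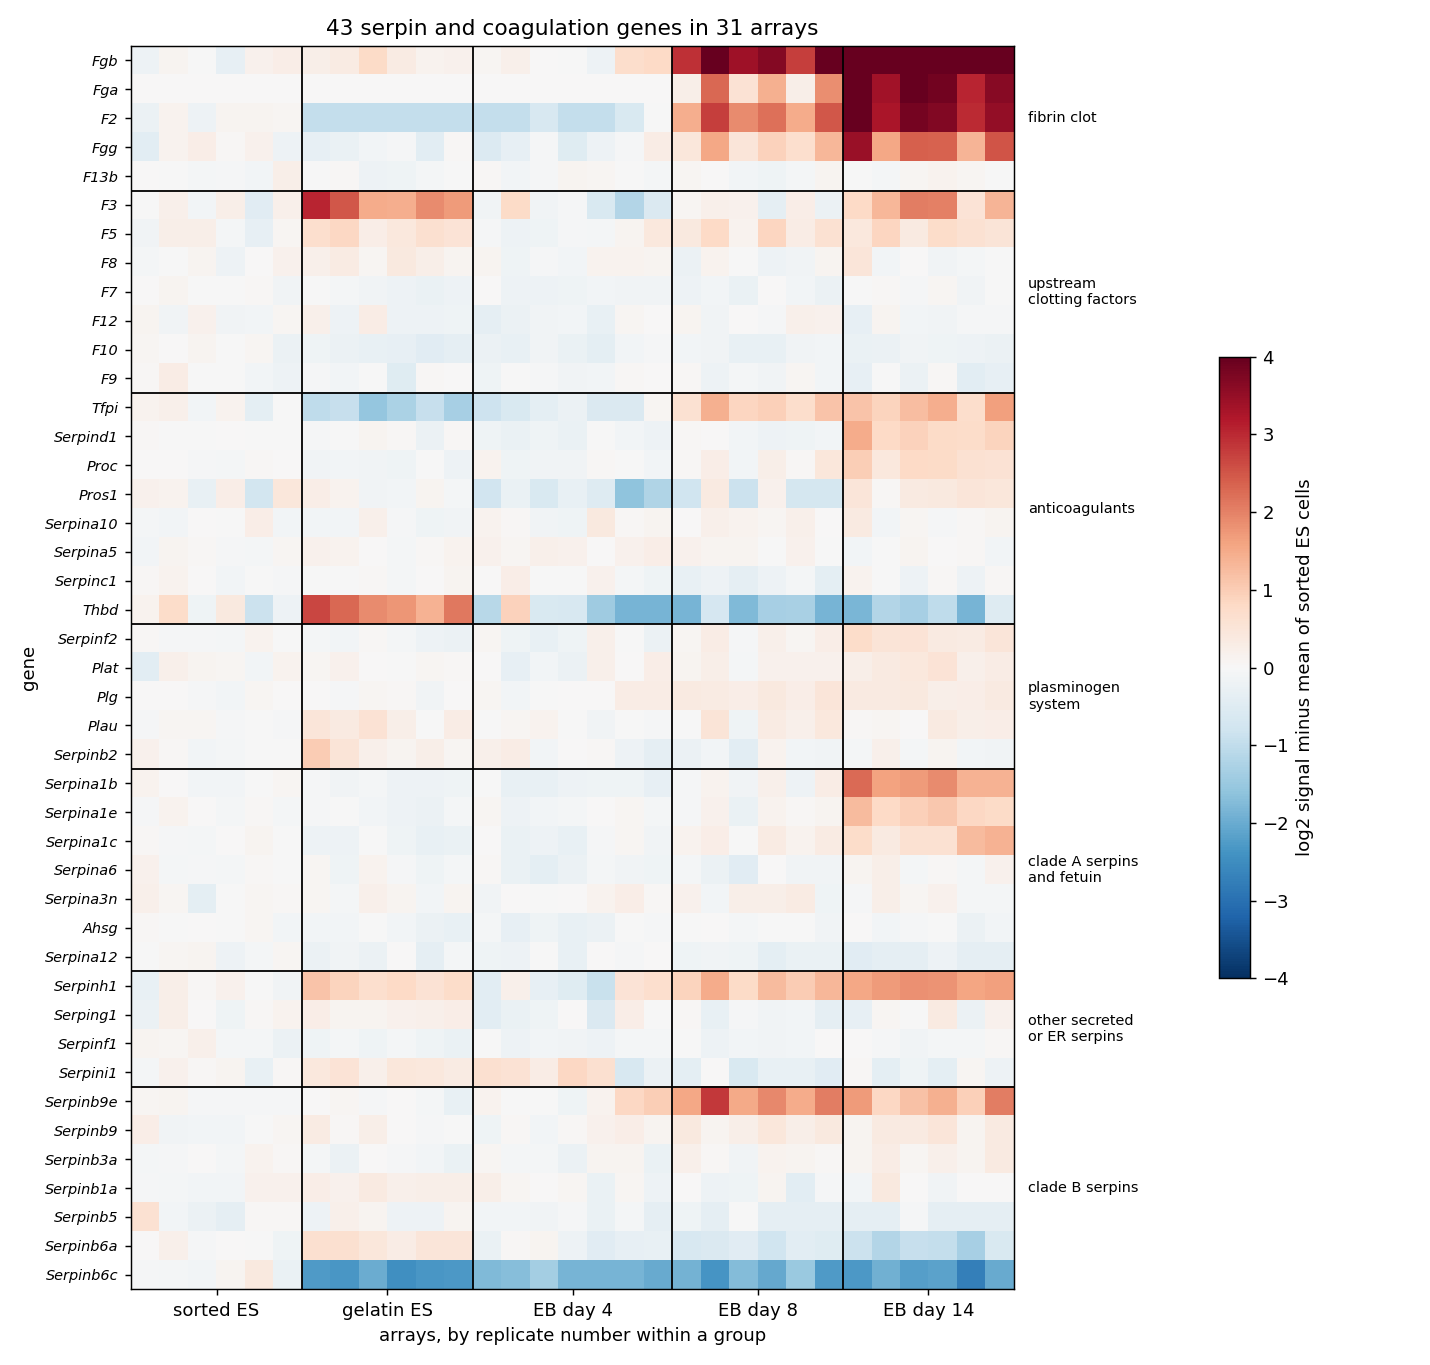
Log2 signal of the 43 members (rows, ordered by role) on each of the 31 arrays (columns, by group), minus the gene's mean in sorted ES cells. Fga, Fgb, Fgg and F2 stand out on day 8 and day 14, Serpinb6c separates sorted ES cells from all other arrays, and Thbd is highest on gelatin.

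Several properties of the arrays bear on these values. Arrays of a group correlated at 0.947 to 0.997 with each other, and day 4 replicates 6 and 7 stood apart, with mean correlations to their group of 0.964 and 0.974. Without these 2 arrays, 2 members were higher and 7 lower on day 4 than in gelatin ES cells, and 14 were higher and 4 lower on day 8 than on day 4. On day 8 the arrays fell into 2 sets. Replicates 2, 4 and 6 had summed signals of 8 undifferentiated ES cell markers of 13120, 14450 and 16160, and replicates 1, 3 and 5 of 29270, 34420 and 36320. The former had the 3 highest sums of the day for visceral endoderm, fibroblast, hepatocyte, endothelial and trophoblast markers as well, with fibroblast sums of 17940, 13140 and 12960 against 7687, 6871 and 6247. The labels give no reason for this split, and day 8 is treated as 1 group. Leaving out 1 day 8 array at a time gave 9 to 15 members higher than on day 4, the fewest without replicate 6. The ratio of the 3′ to the 5′ probe set of Gapdh, a sign of RNA length, was 3.48, 5.18 and 6.85 in gelatin ES cells but 2.76, 2.91 and 3.09 in sorted ES cells, 2.24, 3.16 and 4.4 on day 4, 2.11, 2.27 and 2.61 on day 8 and 2.06, 2.41 and 2.68 on day 14. Its part in the changes against gelatin ES cells was not tested. The methods speak of biological samples at each time point without stating whether these were separate cultures. The p values thus measure the spread between these arrays.

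The fibrinogen genes and F2 carried the largest rises of the set. Fgg, Fga and Fgb are direct neighbours on mouse chromosome 3, and Serpina1b, Serpina1c and Serpina1e lie together on chromosome 12. The 250 bases before the start of each gene were read from RefSeq's promoter table (GRCm38.p6), which held 34 of the 43 members. The windows of the 3 fibrinogen genes are shown because these genes lie side by side and rose together. Those of Serpina1b and Serpina1c are shown because the 2 windows are nearly identical. They are written 5′ to 3′ on the strand of the gene, ending at the base before the start, and the capitals in Serpina1b and Serpina1c mark the bases at which their alignment differs.
Fga, chr3:83025903-83026152, plus strand: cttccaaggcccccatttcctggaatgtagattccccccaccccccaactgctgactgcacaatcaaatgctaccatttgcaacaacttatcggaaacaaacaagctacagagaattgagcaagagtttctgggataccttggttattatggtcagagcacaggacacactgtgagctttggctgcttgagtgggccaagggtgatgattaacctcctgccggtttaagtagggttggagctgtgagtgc
Fgb, chr3:83049864-83050113, minus strand: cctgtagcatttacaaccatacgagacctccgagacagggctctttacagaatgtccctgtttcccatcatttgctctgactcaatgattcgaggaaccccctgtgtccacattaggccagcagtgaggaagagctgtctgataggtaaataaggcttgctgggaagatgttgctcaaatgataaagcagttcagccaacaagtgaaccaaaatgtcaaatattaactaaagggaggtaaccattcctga
Fgg, chr3:83007474-83007723, plus strand: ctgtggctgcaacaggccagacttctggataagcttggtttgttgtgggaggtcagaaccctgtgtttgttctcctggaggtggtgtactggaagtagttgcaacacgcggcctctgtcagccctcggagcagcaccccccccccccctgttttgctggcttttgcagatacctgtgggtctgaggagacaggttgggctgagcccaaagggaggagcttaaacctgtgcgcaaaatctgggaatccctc
Serpina1b, chr12:103738190-103738439, minus strand: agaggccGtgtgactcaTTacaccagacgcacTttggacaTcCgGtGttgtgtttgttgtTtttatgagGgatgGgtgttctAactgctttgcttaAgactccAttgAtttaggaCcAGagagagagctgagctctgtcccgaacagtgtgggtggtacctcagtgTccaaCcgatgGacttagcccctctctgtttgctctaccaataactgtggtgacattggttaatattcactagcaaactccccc
Serpina1c, chr12:103904951-103905200, minus strand: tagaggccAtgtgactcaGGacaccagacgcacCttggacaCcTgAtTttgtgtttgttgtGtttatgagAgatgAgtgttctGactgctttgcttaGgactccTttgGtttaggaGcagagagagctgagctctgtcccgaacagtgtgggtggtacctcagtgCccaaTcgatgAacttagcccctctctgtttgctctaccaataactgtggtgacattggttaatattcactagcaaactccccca
Serpina1b and Serpina1c were identical at 229 of 250 aligned positions (91.6%), 2 of the others being gaps, and Serpina1b and Serpina1e at 97% of 200. The best local alignments among the fibrinogen windows covered 22 columns for Fga with Fgb, 46 for Fga with Fgg and 35 for Fgb with Fgg, at 77.3%, 65.2% and 65.7% identity.

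Of the 5 measured members of the fibrin clot, 4 were higher on day 14 than in either kind of ES cell, and F13b, the carrier subunit of the factor that cross-links fibrin, passed in no comparison (medians 104 in sorted ES cells and 109 on day 14). Among all genes 27.0% were higher and 24.4% lower in this comparison with sorted ES cells, and the counts for the other roles below stand beside these same shares. The median log2 change of the 5 against sorted ES cells was 3.59, beside 0.00 for all genes. Fgb, the fibrinogen beta chain, read 65.4, 84.0 and 98.1 in sorted and 88.8, 99.4 and 137 in gelatin ES cells. In EBs it read 70.1, 86.4 and 140.2 on day 4, 551, 942 and 1388 on day 8 and 1697, 2233 and 2768 on day 14. The day 8 and day 14 arrays overlapped neither each other nor any earlier group. The log2 change on day 14 was 4.74 ± 0.20 (SE, adjusted p = 3.73e-16) against sorted ES cells, a 26.8-fold rise, and 4.42 ± 0.20 (SE, adjusted p = 2.77e-15) against gelatin ES cells. No rise was called by day 4 (-0.10 ± 0.20, adjusted p = 0.777). Most of the rise fell between day 4 and day 8, at 3.25 ± 0.20 (SE, adjusted p = 3.56e-12), and a further 1.27 ± 0.20 (SE, adjusted p = 3.49e-05) followed by day 14.

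F2, the gene of prothrombin, read 98.5, 124 and 128 in sorted ES cells but 40.6, 43.8 and 48.1 on gelatin, where all 6 arrays were below the floor. In EBs it read 42.1, 57.4 and 115 on day 4, with 4 of 7 arrays below the floor, then 316, 482 and 790.4 on day 8 and 927, 1417 and 2177 on day 14. The rise on day 14 was 3.59 ± 0.20 (SE, adjusted p = 9.02e-14) against sorted and 4.55 ± 0.20 (SE, adjusted p = 1.17e-15) against gelatin ES cells, and the latter size is set by the floor. So is the difference between the ES cells. Gelatin ES cells were also below sorted ES cells, at -0.96 ± 0.20 (SE, adjusted p = 0.000345) with no overlap, and no other member of this role differed between them past the threshold. F2 rose by 2.78 ± 0.19 (SE, adjusted p = 3.54e-11) from day 4, where most arrays were at the floor, to day 8 and by 1.54 ± 0.20 (SE, adjusted p = 2.39e-06) from day 8 to day 14, again without overlap.

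Fga, the alpha chain, lay below the floor on every array of sorted ES cells, gelatin ES cells and day 4 EBs, with highest arrays of 48.2, 43.5 and 47.9. It read 69.6, 124 and 293 on day 8 and 493, 806 and 1568 on day 14. The groups did not overlap, and the log2 change on day 14 was 3.77 ± 0.26 (SE, adjusted p = 5.26e-12) against sorted and 3.77 ± 0.26 (SE, adjusted p = 4.25e-12) against gelatin ES cells. Because the earlier groups lay below the floor, these sizes are set by it and are no measure of the ES cell level. The same holds for the step of 1.10 ± 0.25 (adjusted p = 0.00179) from day 4 to day 8, which was 0.06 and not called with a floor at the 25th percentile. From day 8, where all 6 arrays were above the floor, to day 14 the change was 2.67 ± 0.26 (adjusted p = 4.12e-08).

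Fgg, the gamma chain, had a measurable signal throughout, of 170, 242 and 269.8 in sorted ES cells and 169, 197 and 233 on gelatin. In EBs it read 156, 197 and 275 on day 4, 311, 396 and 658 on day 8 and 575, 1165 and 2452 on day 14. The day 14 arrays were above all ES cell arrays but overlapped with those of day 8. The change on day 14 was 2.27 ± 0.24 (SE, adjusted p = 1.42e-08) against sorted and 2.46 ± 0.24 (SE, adjusted p = 3.35e-09) against gelatin ES cells, with 1.10 gained from day 4 to day 8 and 1.36 from day 8 to day 14 (adjusted p = 0.000942 and 0.000121).

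The arrays of a day ranked alike in these genes. On day 8 replicates 2, 4 and 6 were the highest 3 in Fga, Fgb, Fgg and F2, and on day 14 replicate 1 was the highest and replicate 5 the lowest in all 4. Markers of other cell types moved with them. Of the 15 genes listed as visceral endoderm markers 13 were measured, and 11 were higher on day 8 than on day 4 and 0 lower. Among all genes 13.6% were higher and 13% lower. Hnf4a and Gata4 had medians of 311 and 795 on day 4 and of 342 and 778 on day 8. On day 14, 9 of the 13 were higher and 2 lower than in sorted ES cells, where 27.0% and 24.4% of all genes were. The summed signal of the 13 was 5845, 6496 and 6610 on gelatin, 7184, 8231 and 17080 on day 4, 28940, 36860 and 41530 on day 8 and 37350, 46480 and 49130 on day 14. These day 8 arrays are the ones that also differed from the rest in markers of several other cell types, given above, and their visceral endoderm sums were 41530, 39370 and 40560. On day 14 replicate 5 had the lowest visceral endoderm sum (37350), while the highest was that of replicate 4 (49130) and not of replicate 1 (48630). In sorted ES cells the sum of 15500, 17040 and 17750 was made up mostly of Rhox5, with a median of 11840. Of 7 measured hepatocyte markers 4 were higher, Alb with 0.91, and 0 lower on day 14 than in sorted ES cells, beside 27.0% and 24.4% of all genes. The sum of the 7 was 3474, 3753 and 3849 in sorted ES cells and 4194, 4725 and 5343 on day 14. Tat, Cps1 and Hp did not pass. The part of these cell types in the rise of the clotting genes was not tested.

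**Figure D2:**
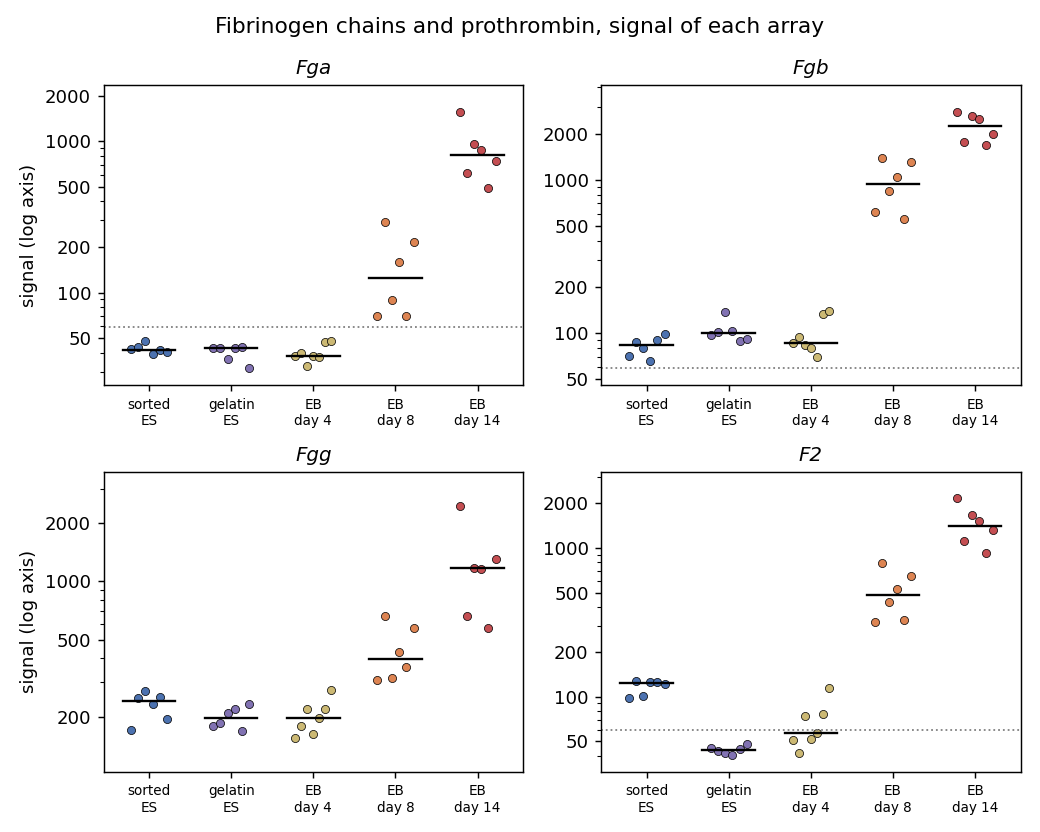
Signal of Fga, Fgb, Fgg and F2 on each array (points, log axis) by group, with the group's median as a line and the floor of 59.6 as a dotted line. Fga, Fgb and F2 on day 8 and day 14 lie above all ES cell and day 4 arrays, while the Fgg arrays of day 8 and day 14 overlap.

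Upstream of thrombin, 7 members were measured, and 2 of them, F3 and F5, were higher on day 14 than in sorted ES cells and 2, F9 and F10, lower, with a median change of -0.01. F3, the membrane protein tissue factor that starts clotting, read 272, 399 and 438 in sorted ES cells and 1037, 1301 and 3080 on gelatin. It then read 166, 343 and 643 on day 4, 294, 411 and 455 on day 8 and 551, 958 and 1544 on day 14. All gelatin arrays were above all sorted, day 4 and day 8 arrays. F3 was 4.02-fold higher on gelatin than in sorted ES cells, at 2.01 ± 0.29 (SE, adjusted p = 2.67e-06), was 4.85-fold lower on day 4, at -2.28 ± 0.28 (SE, adjusted p = 4.28e-07), and rose again from day 8 to day 14 by 1.32 ± 0.29 (SE, adjusted p = 0.000992). Day 14 was higher than sorted ES cells (1.35 ± 0.29, adjusted p = 0.000323), while against gelatin ES cells the change of -0.66 ± 0.29 did not pass (adjusted p = 0.0634). It was called at -0.70 with each array centred on its median, at -0.77 without gelatin replicate 3 or 4, at -0.80 without day 14 replicate 3 and at -0.79 without day 14 replicate 4.

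F5, the cofactor that speeds thrombin formation, was likewise high on gelatin, low on day 4 and higher again later. It read 140.4, 176 and 206 in sorted ES cells, 212, 266 and 313 on gelatin, and 152, 169 and 234 on day 4, 193, 249 and 317 on day 8 and 226, 261 and 316 on day 14. It was higher on gelatin than in sorted ES cells (0.56 ± 0.12, adjusted p = 0.000666), lower on day 4 than on gelatin (-0.57, adjusted p = 0.000739) and higher again on day 8 (0.52, adjusted p = 0.00203). On day 14 it was 0.58 ± 0.12 (SE, adjusted p = 0.000333) above sorted ES cells, without overlap, and did not differ detectably from gelatin ES cells (0.02 ± 0.12, adjusted p = 0.945).

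The proteases of the chain changed little through the probe sets that stood for them. F7, the partner of tissue factor, was 0.14 above gelatin ES cells on day 14 (adjusted p = 0.0236), F9 was -0.21 against sorted ES cells (adjusted p = 0.0461) and F10 -0.20 (adjusted p = 0.00503). F8, the cofactor of factor IX, was 0.22 higher on gelatin than in sorted ES cells (adjusted p = 0.0466), and F12 and a dimmer probe set of F7 passed in none of the 6 comparisons. F10, which encodes the protease that cuts prothrombin, had another, dimmer probe set with another course. It read 64.6, 73.6 and 85.3 in sorted ES cells and 60.7, 69.7 and 79.4 on gelatin, and 64.9, 70.4 and 93.6 on day 4, 139, 221 and 336 on day 8 and 255, 412 and 568 on day 14. Day 8 and day 14 lay above all earlier arrays, and the change on day 14 against sorted ES cells was 2.43 ± 0.18 (SE, adjusted p = 1.13e-11). The 2 probe sets of F10 thus disagree in direction, and which of them follows the gene was not tested.

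Of the 8 anticoagulant members 3 were higher and 1 was lower on day 14 than in sorted ES cells, and the 2 with the largest changes, Tfpi and Thbd, moved in opposite directions. These are 37.5% and 12.5% of the 8, and their median change was 0.22. Tfpi, the inhibitor of the tissue factor and factor VII complex, read 1624, 2220 and 2457 in sorted ES cells and 721, 966 and 1122 on gelatin. In EBs it read 1200, 1417 and 2244 on day 4, 3237, 3972 and 5708 on day 8 and 3467, 4860 and 6600 on day 14. It was 2.25-fold lower on gelatin than in sorted ES cells, at -1.17 ± 0.16 (SE, adjusted p = 1.75e-06), and all gelatin arrays were below all other arrays. It rose by 0.72 ± 0.16 (SE, adjusted p = 0.00107) to day 4 and by 1.40 ± 0.16 (SE, adjusted p = 2.58e-07) to day 8, and the change from day 8 to day 14 did not pass (0.23 ± 0.16, adjusted p = 0.296). On day 14 it was 2.27-fold above sorted and 5.11-fold above gelatin ES cells, at 1.18 ± 0.16 (SE, adjusted p = 9.39e-07) and 2.35 ± 0.16 (SE, adjusted p = 4.78e-12), with no overlap.

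Thbd, the gene of thrombomodulin, which turns thrombin from a clotting enzyme into an activator of protein C, fell further than any other member between gelatin ES cells and day 14. It read 118, 214 and 358 in sorted ES cells and 565, 871 and 1382 on gelatin, then 34.8, 99.6 and 413 on day 4, 43.4, 75.0 and 135 on day 8 and 40.4, 91.0 and 152 on day 14. Arrays below the floor numbered 2, 2 and 1 in the EB groups. All gelatin arrays were above all others. Thbd was 4.06-fold higher on gelatin than in sorted ES cells, at 2.02 ± 0.36 (SE, adjusted p = 5.49e-05), and lower on day 4 by 7.78-fold, at -2.96 ± 0.35 (SE, adjusted p = 2.27e-07). Day 14 was -3.30 ± 0.36 (SE, adjusted p = 1.95e-08) against gelatin and -1.28 ± 0.36 (SE, adjusted p = 0.0043) against sorted ES cells, and the comparison with sorted ES cells had overlapping arrays and was not called with a floor at the 25th percentile (-0.18). A dimmer probe set of Thbd was lower on day 14 too, by -1.84 against gelatin and -0.67 against sorted ES cells (adjusted p = 8.57e-07 and 0.03).

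Markers of other cell types differed between the ES cells as well. Among all genes 23.3% were higher and 18.4% lower on gelatin than in sorted ES cells. Of 11 measured fibroblast markers 4 were higher and 1 lower on gelatin than in sorted ES cells, with a median change of -0.11. Among the higher ones were Col1a1 by 1.51 and Col1a2 by 1.79. The summed signal, in which bright genes weigh most, was 9413, 10970 and 13090 in sorted and 15610, 17130 and 26020 in gelatin ES cells. It was 5896, 6485 and 9539 on day 4 and 24540, 33730 and 40140 on day 14. Of 10 parietal endoderm markers, genes of the extraembryonic layer that lays down a thick basement membrane, 4 were higher and 1 lower on gelatin than in sorted ES cells and 0 higher and 6 lower on day 4 than on gelatin. Among all genes 8.33% were higher and 17.8% lower on day 4 than on gelatin. The sum of the 10 markers was 7151, 7935 and 8333 in sorted and 12880, 15020 and 16260 in gelatin ES cells, and 7058, 8030 and 10550 on day 4. The 7 endothelial markers summed to 3376, 3507 and 3909 in sorted and 3994, 4297 and 4734 in gelatin ES cells. Of these 7, 1 was higher and 1 lower on gelatin, with a median change of -0.01, beside 23.3% and 18.4% of all genes. Eng had medians of 1006 in sorted and 1834 in gelatin ES cells, and Pecam1 of 560 and 482.5. The part of remaining MEFs or of these cell types in the gelatin values was not tested.

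**Figure D3:**
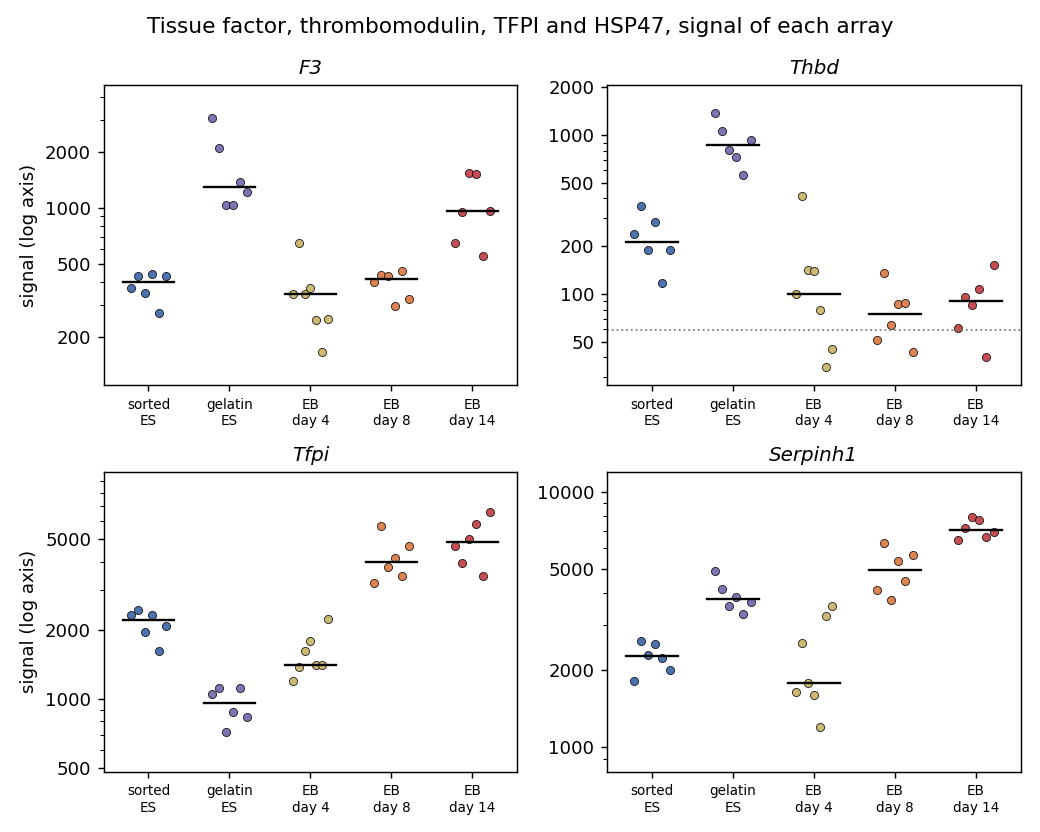
Signal of F3, Thbd, Tfpi and Serpinh1 on each array (points, log axis) by group, with medians as lines and the floor dotted in the panel of Thbd. The medians of F3 and Thbd are highest on gelatin, that of Tfpi is lowest there, and Serpinh1 is highest on day 14.

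Serpind1, the gene of heparin cofactor II, which inhibits thrombin, changed late. It read 153, 155 and 161 in sorted ES cells, 133, 157 and 169 on gelatin, 128, 138 and 154 on day 4 and 134, 145 and 162 on day 8, and then 259, 280.1 and 435 on day 14. All 6 day 14 arrays were above all other arrays, and the change from day 8 was 1.02 ± 0.08 (SE, adjusted p = 3.19e-09). Against sorted ES cells it was 0.93 ± 0.08 (SE, adjusted p = 6.76e-10).

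Proc, the gene of protein C, which inactivates clotting cofactors once thrombin on thrombomodulin has activated it, read 536, 574 and 589.9 in sorted and 496, 515 and 560 in gelatin ES cells, and 501, 523 and 624 on day 4, 526, 633 and 772 on day 8 and 767, 911 and 1122 on day 14. Day 14 was above sorted ES cells by 0.69 ± 0.08 (SE, adjusted p = 4.53e-08) and above gelatin ES cells by 0.82 ± 0.08 (SE, adjusted p = 1.91e-09), without overlap. A dimmer probe set of Proc was slightly lower against sorted ES cells (-0.13, adjusted p = 0.0143). Pros1, the gene of the cofactor protein S, was lower on day 4 than on gelatin (-0.78, adjusted p = 0.00905) and higher on day 14 than on day 8 (0.80, adjusted p = 0.00826), and on day 14 passed against neither ES cell group. Serpinc1, the gene of antithrombin, was lower on day 8 than on day 4 (-0.28, adjusted p = 0.00204) and higher again on day 14 (0.23, adjusted p = 0.0108). Serpina5, the protein C inhibitor, and Serpina10, which inhibits factor X together with protein Z, passed in no comparison through the probe sets that stood for them. A dimmer probe set of Serpina5 was lower on gelatin than in sorted ES cells (-0.29, adjusted p = 0.0103), and higher on day 4 (0.27, adjusted p = 0.0208) and on day 14 (0.24, adjusted p = 0.0292) than on gelatin.

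In the fibrinolytic system 3 of 5 members were higher on day 14 than in sorted ES cells and 0 lower, with a median change of 0.33, and none reached 2-fold. Serpinf2, the gene of the plasmin inhibitor alpha2-antiplasmin, read 377, 387 and 437 in sorted ES cells, 334, 371 and 404 on gelatin, and 320.1, 349 and 451 on day 4, 381, 436 and 482 on day 8 and 492, 561 and 654 on day 14. It was 0.50 ± 0.08 (SE, adjusted p = 5.76e-06) above sorted and 0.61 ± 0.08 (SE, adjusted p = 2.47e-07) above gelatin ES cells, without overlap. Its dimmer probe set was lower on day 14 than in sorted ES cells (-0.28, adjusted p = 0.0222), and with the mean of both probe sets the change was 0.11 and was not called.

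Plg, the gene of plasminogen, read 374, 408 and 427 in sorted ES cells, 367, 409 and 423 on gelatin, and 375, 407 and 499 on day 4, 481, 510.1 and 566 on day 8 and 473, 514 and 527 on day 14. Day 14 was 0.33 ± 0.06 (SE, adjusted p = 3.77e-05) above sorted ES cells, and the step lay between day 4 and day 8 (0.26, adjusted p = 0.00109). Its dimmer probe set read 179, 207 and 241 in sorted and 177, 204 and 268 in gelatin ES cells, and 148, 191 and 254 on day 4, 231, 343 and 451 on day 8 and 448, 615 and 809.9 on day 14, a rise of 1.58 ± 0.16 (SE, adjusted p = 7.01e-09) against sorted ES cells. Both probe sets rose, the dimmer one by the larger size.

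Plat, the gene of tissue plasminogen activator, read 1851, 2632 and 2837 in sorted ES cells, 2424, 2546 and 2803 on gelatin, and 1961, 2464 and 2961 on day 4, 2313, 2769 and 2910 on day 8 and 2856, 3079 and 3577 on day 14. It was 0.34 ± 0.09 (SE, adjusted p = 0.00345) above sorted and 0.28 ± 0.09 (SE, adjusted p = 0.0162) above gelatin ES cells, with all day 14 arrays above all ES cell arrays. Plau, the gene of urokinase, was higher on gelatin than in sorted ES cells (0.32, adjusted p = 0.00729) and lower on day 4 than on gelatin (-0.32, adjusted p = 0.00978). Serpinb2, an inhibitor of urokinase, was likewise higher on gelatin (0.36, adjusted p = 0.0223) and lower on day 4 (-0.38, adjusted p = 0.0229), and remained lower on day 14 than on gelatin (-0.38, adjusted p = 0.0158).

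Among 7 members that are clade A serpins of plasma or fetuin, 3 were higher and 1 lower on day 14 than in sorted ES cells (median change 0.06). The 3 were alpha1-antitrypsin genes, which encode inhibitors of neutrophil elastase and related proteases. Serpina1b read 339, 368 and 407 in sorted ES cells, 317, 329 and 352 on gelatin, 295, 317 and 366 on day 4, 322, 380.3 and 453 on day 8 and 963, 1150 and 1755 on day 14. The day 14 arrays were all at least 962.8 where no earlier array passed 453.4. The change on day 14 was 1.71 ± 0.11 (SE, adjusted p = 9.35e-13) against sorted and 1.85 ± 0.11 (SE, adjusted p = 1.44e-13) against gelatin ES cells. The step from day 4 to day 8 did not pass (0.26 ± 0.10, adjusted p = 0.0653), though it was called without day 4 replicate 1 (0.29) and without day 8 replicate 3 (0.30) or 5 (0.31). The step from day 8 to day 14 was 1.66 ± 0.11 (SE, adjusted p = 5.29e-11). Whether this course differs from those of Fgb and F2 was not tested.

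Serpina1e read 363, 377 and 419 in sorted ES cells, 328, 361 and 376 on gelatin, and 335, 365 and 406 on day 4, 317, 401 and 428 on day 8 and 649.5, 715 and 923 on day 14. It was 0.95 ± 0.08 (SE, adjusted p = 6.89e-11) above sorted ES cells. Serpina1c read 853, 892 and 962 in sorted ES cells, 732, 778 and 889 on gelatin, and 726, 806 and 938 on day 4, 889, 1041 and 1135 on day 8 and 1159, 1428 and 2328 on day 14, and was 0.83 ± 0.12 (SE, adjusted p = 1.31e-06) above sorted ES cells. A dimmer probe set of Serpina1c was 0.56 above sorted ES cells (adjusted p = 7.95e-07). In all 3 genes the day 14 arrays were above every earlier array. The transcripts of these copies were not compared here, but the signal of probes for 1 copy may come from another. The 3 genes are not taken as 3 independent results. A further 3 probe sets, which carry several Serpina1 symbols and are no members, were also higher on day 14 than in sorted ES cells, by 0.93, 2.13 and 0.61.

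Other genes of this role did not follow. Serpina12, the gene of vaspin, read 131, 153 and 160 in sorted ES cells, 117, 132 and 150.5 on gelatin, and 121, 144 and 150.3 on day 4, 115, 129 and 135 on day 8 and 109.7, 117 and 130.4 on day 14. It was -0.34 ± 0.06 (SE, adjusted p = 4.52e-05) against sorted ES cells, without overlap, and -0.17 against gelatin ES cells (adjusted p = 0.0248). The comparison with gelatin ES cells lost its call without gelatin replicate 4 (-0.14) or 6 (-0.15) or day 14 replicate 1 (-0.15). Serpina12 lies on chromosome 12 close to the Serpina1 genes. Serpina3n, an inhibitor of the antichymotrypsin type with medians of 724 in sorted ES cells and 704 on day 14, did not pass against either ES cell group. Serpina6, which carries corticosteroids in plasma, was higher on day 14 than on day 8 (0.23, adjusted p = 0.0189) and passed against neither ES cell group, and its dimmer probe set passed in no comparison. Ahsg, the gene of the plasma protein fetuin-A, was lower on gelatin than in sorted ES cells (-0.15, adjusted p = 0.0294), with a day 14 change of -0.09 ± 0.05 against sorted ES cells (adjusted p = 0.207).

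**Figure D4:**
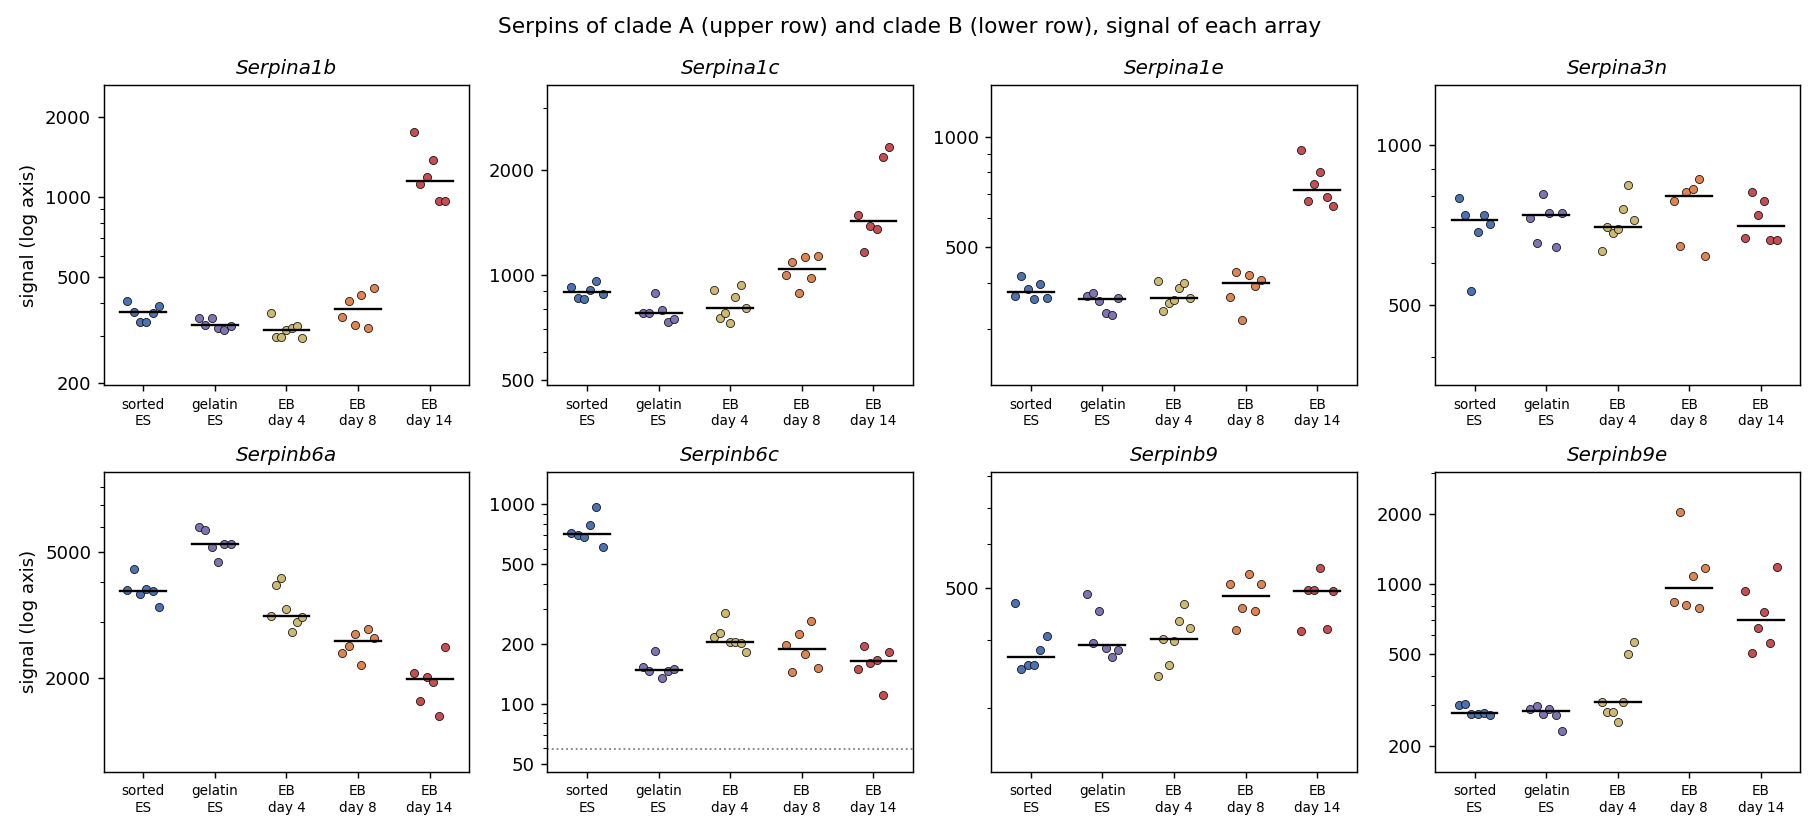
Signal on each array (points, log axis) by group, with medians as lines and the floor dotted in the panel of Serpinb6c, for 4 genes of the Serpina cluster on chromosome 12 (Serpina1b, Serpina1c, Serpina1e and Serpina3n) and 4 of the Serpinb cluster on chromosome 13 (Serpinb6a, Serpinb6c, Serpinb9 and Serpinb9e). The Serpina1 genes rise on day 14 while Serpina3n does not. The neighbours Serpinb6a and Serpinb6c differ in direction between sorted and gelatin ES cells, while both are lower on day 14 than in sorted ES cells.

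Of 4 other secreted or endoplasmic reticulum serpins only Serpinh1 was higher on day 14 than in sorted ES cells, and 0 were lower (median change -0.02). Serpinh1, known as HSP47, is a serpin that has no inhibitor function and acts as a chaperone of collagen in the endoplasmic reticulum. It read 1818, 2265 and 2605 in sorted ES cells and 3317, 3785 and 4895 on gelatin, and 1201, 1784 and 3566 on day 4, 3769, 4921 and 6309 on day 8 and 6495, 7093 and 7981 on day 14. Every day 14 array was above every other array. Serpinh1 was higher on gelatin than in sorted ES cells (0.80 ± 0.19, adjusted p = 0.00127), lower on day 4 (-0.90 ± 0.18, adjusted p = 0.000471) and higher on day 8 (1.23 ± 0.18, adjusted p = 1.5e-05). On day 4, replicates 6 and 7 read 3253 and 3566, and without them the changes were -1.19 to day 4 and 1.51 to day 8. On day 14 it was 1.68 ± 0.19 (SE, adjusted p = 3.41e-08) above sorted and 0.88 ± 0.19 (SE, adjusted p = 0.000371) above gelatin ES cells. The summed signal of the fibroblast markers, which was not tested, had a median of 33730 on day 14, 10970 in sorted and 17130 in gelatin ES cells. The lowest day 14 sum, 24540, lay below the highest gelatin sum, 26020. Of the 11 markers 6 were higher and 4 lower against sorted, and 5 higher and 3 lower against gelatin ES cells. Among all genes 27.0% were higher and 24.4% lower against sorted, and 22.8% and 24.1% against gelatin ES cells. The part of these markers was not tested.

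Serpini1, neuroserpin, an inhibitor of tissue plasminogen activator in the nervous system, read 335, 426 and 463 in sorted ES cells, 473, 554 and 599.7 on gelatin, and 264, 607 and 735 on day 4, 271, 325 and 418 on day 8 and 312, 362 and 435 on day 14. It was lower on day 8 than on day 4 (-0.63, adjusted p = 0.00632) and on day 14 than on gelatin (-0.57 ± 0.17, adjusted p = 0.00848), and did not pass against sorted ES cells. Serping1, the C1 inhibitor, was lower on day 4 than on gelatin (-0.36, adjusted p = 0.0217), and Serpinf1, known as PEDF, was lower on gelatin than in sorted ES cells (-0.16, adjusted p = 0.0223). Serpinf1 lies next to Serpinf2 on chromosome 11, and both of its probe sets passed against neither ES cell group on day 14. Its dimmer probe set was lower on day 4 than on gelatin (-0.56, adjusted p = 0.000863) and higher on day 14 than on day 8 (0.61, adjusted p = 0.000453, without overlap).

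Most clade B serpins stay inside the cell, where many of them protect it from proteases that leak from granules or lysosomes. Of 7 members, not counting Serpinb2 given above, 3 were higher and 3 lower on day 14 than in sorted ES cells, with a median change of 0.03. Serpinb6c and Serpinb6a are direct neighbours on chromosome 13 and both were lower on day 14 than in sorted ES cells. Serpinb6c read 614, 711 and 972 in sorted ES cells but 135, 149 and 185 on gelatin, and 183, 205 and 285 on day 4, 145, 188 and 262 on day 8 and 112, 164 and 194 on day 14. The 6 sorted arrays were above all 25 others. The gene was 4.85-fold lower on gelatin (-2.28 ± 0.14, adjusted p = 6.74e-13) and 4.66-fold lower on day 14 (-2.22 ± 0.14, adjusted p = 8.64e-13) than in sorted ES cells. Against gelatin ES cells it was higher on day 4 (0.50, adjusted p = 0.0061) but not on day 14 (0.06 ± 0.14, adjusted p = 0.783). Of 8 markers of undifferentiated ES cells 5 were also lower and 0 higher on gelatin than in sorted ES cells, where 18.4% and 23.3% of all genes were. The sums of the 8 markers were 20050, 24670 and 25680 against 39630, 44820 and 48480, and their part was not tested.

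Serpinb6a, an inhibitor of cathepsin G and other serine proteases, read 3353, 3771 and 4405 in sorted ES cells and 4643, 5288 and 5965 on gelatin, and 2792, 3129 and 4128 on day 4, 2198, 2605 and 2857 on day 8 and 1516, 1978 and 2505 on day 14. In contrast to its neighbour it was higher on gelatin (0.50 ± 0.10, adjusted p = 0.000282) and lower at each later time than at the one before, with log2 changes of -0.69 to day 4, -0.37 to day 8 and -0.41 to day 14. The last was the 1 member change called lower between day 8 and day 14. On day 14 it was -0.97 ± 0.10 (SE, adjusted p = 9.68e-09) against sorted and -1.47 ± 0.10 (SE, adjusted p = 4.58e-12) against gelatin ES cells.

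Serpinb9e, a rodent relative of the granzyme B inhibitor Serpinb9 on the same chromosome, rose on day 8. It read 272, 276 and 303 in sorted ES cells, 232, 282 and 297 on gelatin and 253, 309 and 562 on day 4, where replicates 6 and 7, at 499 and 562, were the highest. It then read 789, 955 and 2032 on day 8 and 505, 698 and 1180 on day 14. The rise from day 4 to day 8 was 1.63 ± 0.21 (SE, adjusted p = 1.74e-06), and 1.88 without those 2 arrays. Day 14 was above sorted ES cells by 1.36 ± 0.21 (SE, adjusted p = 6.9e-06), and the decline after day 8 did not pass (-0.53 ± 0.21, adjusted p = 0.0572). It was called without day 8 replicate 1 (-0.60), 3 (-0.61) or 5 (-0.62) and without day 14 replicate 1 (-0.61) or 6 (-0.67). A probe set that carries several Serpinb9 symbols had the same course, higher on day 8 than on day 4 by 1.84 (adjusted p = 9.96e-07), and the copies may share probes.

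The remaining clade B members changed little. Serpinb3a, a member of the squamous cell carcinoma antigen group, read 134, 142 and 157 in sorted ES cells, 119, 134 and 146 on gelatin, and 119.5, 136 and 156 on day 4, 131, 152 and 166 on day 8 and 151, 159.6 and 184 on day 14, with 0.19 against sorted ES cells (adjusted p = 0.0218). This call was lost without day 14 replicate 2 (0.18) or 6 (0.16). Against gelatin ES cells the change of Serpinb3a on day 14 was 0.31 (adjusted p = 0.00055), without overlap. Serpinb9 was 0.29 above sorted ES cells on day 14 (adjusted p = 0.00586), and Serpinb5, known as maspin, -0.31 (adjusted p = 0.0211). Serpinb1a, an inhibitor of neutrophil elastase, was higher on gelatin than in sorted ES cells (0.24, adjusted p = 0.0317) and lower on day 4 than on gelatin (-0.23, adjusted p = 0.0456).

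The changes on day 14 against both kinds of ES cells share the day 14 arrays and are set side by side here. How many of all genes passed in both comparisons was not counted, so the counts below only describe the members. Higher against both were 16 members, among them Fga, Fgb, Fgg, F2, Tfpi, Serpina1b, Serpinh1 and Serpinb9e. Lower against both were 4, Thbd, Serpinb6a, Serpina12 and Serpinb5, and 14 members passed against neither. F3, F5 and Serpinb9 were higher and F9, F10 and Serpinb6c lower against sorted ES cells alone, F7 was higher against gelatin ES cells alone, and 2 members were lower against gelatin ES cells alone. F3 and Serpinb6c were changed against sorted ES cells, at 1.35 and -2.22, but not against gelatin ES cells, at -0.66 and 0.06. The genes Serpini1 and Serpinb2 were lower against gelatin ES cells alone, at -0.57 and -0.38, and had -0.17 and -0.01 against sorted ES cells. Whether the 2 changes of a gene differ is the comparison of gelatin with sorted ES cells. It passed for F3, F5, F7, F10, Serpinb6c and Serpinb2. It did not pass for Serpini1 (0.40, adjusted p = 0.0671), Serpinb9 (0.09, adjusted p = 0.456) or F9 (-0.10, adjusted p = 0.406). The dimmer probe set of F10 was higher on day 14 than in sorted and in gelatin ES cells, by 2.43 and 2.50.

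**Figure D5:**
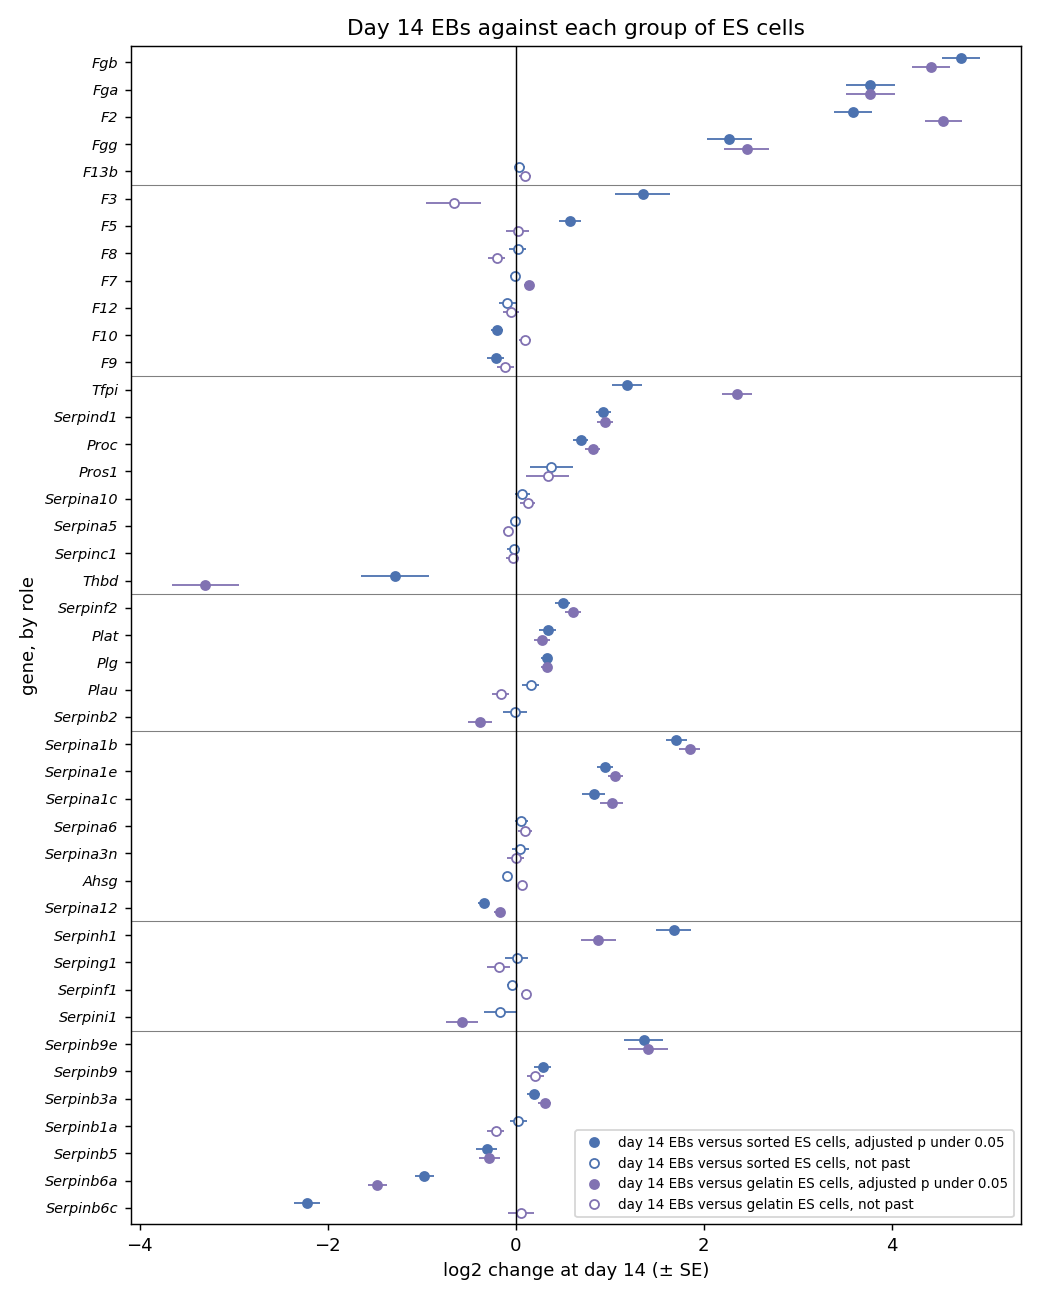
Log2 change (± SE) of the 43 members in day 14 EBs against sorted ES cells and against gelatin ES cells, by role, with filled points for an adjusted p under 0.05. Fga, Fgb, Fgg and F2 lie farthest to the right in both, while Thbd lies farthest to the left against gelatin and Serpinb6c against sorted ES cells.

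Other genes of clotting and fibrinolysis, and genes related to them, were taken from a list of 30, of which 25 were measured. On day 14, 16 of them were higher and 3 lower than in sorted ES cells, with a median change of 0.33 against 0.00 for all genes, and 12 were higher and 5 lower than in gelatin ES cells, with a median of 0.14. Among all genes 27.0% were higher and 24.4% lower against sorted, and 22.8% and 24.1% against gelatin ES cells. Prss12, a protease gene on the list, read 525, 610 and 647 in sorted ES cells and 2817, 3026 and 4065 on day 14. Kng1, the gene of kininogen, the cofactor of contact activation, was 1.78 ± 0.19 above sorted ES cells, and Tgm2, a transglutaminase of the family of factor XIII, 1.63 ± 0.19. F2r, the main thrombin receptor, was 1.05 ± 0.16, and A2m, a broad protease trap of plasma, 0.90 ± 0.07. Ggcx, the enzyme that carboxylates prothrombin and factors VII, IX and X, was 0.80 ± 0.05. Lower were S100a10 (-0.74 ± 0.14), a plasminogen receptor subunit, Plaur (-0.29 ± 0.09), the urokinase receptor, and F2rl2 (-0.41 ± 0.12), another thrombin receptor. Among the genes named as higher, the medians on gelatin and on day 14 were 8714 and 8598 in F2r and 378 and 465 in Tgm2. They were 522 and 3026 in Prss12, 360 and 1254 in Kng1, 255 and 524 in A2m and 111 and 186 in Ggcx. Between gelatin ES cells and day 4 EBs 0 of the 25 were higher and 10 lower, where 8.33% and 17.8% of all genes were. Procr, the receptor that presents protein C to thrombomodulin, was 2.24 ± 0.22 higher on gelatin than in sorted ES cells, as were its partner Thbd and F2r (1.19 ± 0.16). From day 4 to day 8, 11 were higher and 0 lower, where 13.6% and 13% of all genes were, with a median of 0.23.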

How the data were processed

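RNA of 31 samples had been amplified by linear amplification and hybridised to MgU74Av2 arrays. The deposited table holds signal intensity values on a linear scale, which the authors computed from the scanned arrays with dChip, normalized between arrays (model and version not given in the sources used here). Of 12488 probe sets 66 controls were left out. Values were floored at the 5th percentile (59.6), since 104 of 387128 were exactly 0, and put on the log2 scale. limma 3.58.1 in R 4.3.3 (lmFit, eBayes with trend) was fitted to all 31 arrays with a mean per group, and p values were adjusted by Benjamini-Hochberg over 12422 probe sets, of which 10833 carried 1 gene symbol (8251 genes). The fit was tested on simulated data. No absolute depth applies to arrays, and their number limits the precision. The labels do not state that replicate numbers pair the arrays, and the main fit had no replicate block. Deviations of same-numbered arrays correlated at -0.351 to 0.494, over 0.1 in 23 of 60 pairs. Differently numbered arrays were not set beside them, so these values cannot settle whether the arrays are paired.

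The members and gene lists were chosen with earlier results of these data known. Up to 4 members per role are given in full, those with the largest change at day 14 among members past the threshold whose groups did not overlap; the others are given by medians or changes. Alternatives tried were the floor, scaling, a filter on dim probe sets, averaging the probe sets of a gene, array weights, no variance trend, fits of only the groups compared, a replicate block and leaving out single arrays, and, chosen after seeing the data, day 4 replicates 6 and 7 together.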

Additional observations from a re-analysis of the deposited data

Results flagged for a closer look

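Single arrays stood apart from their group in 7 of 115 groups of arrays examined over the 23 members given in full, by Dixon's criterion, which chance meets in about 1 group of 20. On gelatin, replicate 3 read 136.9 in Fgb (next array 102.9) and 185.3 in Serpinb6c (next 153.5). At day 4, replicate 2 read 643.4 in F3 (next 367.1) and 413.4 in Thbd (next 141.7), and replicate 3 read 285.1 in Serpinb6c (next 226.6). Replicate 2 of day 8 read 2032 in Serpinb9e (next 1171), and replicate 1 of day 14 read 434.7 in Serpind1 (next 293.1).

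The dimmer probe sets of F10 and Plg, which did not stand for their genes, were higher in day 14 EBs than in sorted ES cells, by 2.43 in F10 and 1.58 in Plg on the log2 scale, with no overlap of the arrays. Why the probe sets of these genes differ was not tested.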

How the results depend on the processing

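Of 3068 recomputed values for 138 changes of members, 2970 kept their direction and their side of the threshold, 57 were no longer called, 40 became called and 1 reversed. The reversal was Plg from day 8 to day 14, 0.46 with the mean of its probe sets (adjusted p = 0.000998 in limma) against -0.02. Leaving out the dimmest 40% of probe sets left fewer members to count: against sorted ES cells 12 were higher and 3 lower on day 14, against gelatin ES cells 3 lower, between gelatin and sorted ES cells 3 higher and 5 lower, on day 4 1 higher and 5 lower, from day 4 to day 8 8 higher, and from day 8 to day 14 9 higher and 2 lower. With the floor at the 25th percentile, 3 members were lower on day 14 than in sorted ES cells and 1 was higher on day 4. With median centring, 10 were lower on day 14 than on gelatin, 5 higher on day 4 and 5 lower from day 8 to day 14. With quantile normalization 4 were higher on day 4 and 5 lower from day 8 to day 14, a count of 2 with the mean of probe sets and 4 with array weights.

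Whether replicate numbers pair the arrays is not known. With the replicate block, 2 members were lower from day 8 to day 14 in place of 1, and 12 rather than 13 higher from day 4 to day 8. Leaving out 1 array at a time gave 18 to 19 members higher and 5 to 7 lower against sorted ES cells, 16 to 18 and 4 to 7 against gelatin ES cells, 6 to 9 and 5 to 8 for gelatin against sorted, 2 and 8 to 10 on day 4, 9 to 15 and 3 from day 4 to day 8, and 13 to 16 and 1 to 2 from day 8 to day 14. The cause of these changes was not tested. Signals near the floor limit what can be said of Fga, F2, Thbd and Serpinb5.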
